A study of Homo sapiens with 6 samples.

Results

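STARD4, INSIG1, IDI1, LSS and SQLE are 5 genes of sterol synthesis, sterol carriage and the feedback that controls both. They were taken by gene symbol from a deposited table of RNA-seq values for PC9-GR and PC9 cells, and all 5 were found, with 1 entry each, among the 1705 genes listed there. PC9-GR is a gefitinib-resistant derivative of PC9, a human lung adenocarcinoma line labelled as epithelial cells, and both lines carry the genotype EGFR exon19 del. Gefitinib blocks the kinase of the EGF receptor. PC9-GR was selected with doses raised in steps between 0.5 and 10 µM, was then kept at 10 µM, and spent the last 7 days before RNA extraction without the drug. PC9 is the parental line. Each line gave 3 libraries, each from an independent culture. The labels do not say whether PC9-GR is a single clone, and resistance and the drug-free interval cannot be told apart, because every PC9-GR library has both.

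Cells build cholesterol from acetyl units through mevalonate, isopentenyl diphosphate, squalene and lanosterol. The genes of this route are switched on together by SREBP2, a transcription factor encoded by SREBF2 that is made as a membrane protein of the endoplasmic reticulum. While sterols are plentiful, INSIG1 holds SREBP2 and its escort SCAP in that membrane. When sterols run low, SREBP2 travels to the Golgi, is cut free and enters the nucleus, where INSIG1 and SREBF2 are themselves among its targets. IDI1 interconverts the isoprenoid building blocks isopentenyl and dimethylallyl diphosphate, SQLE epoxidises squalene, LSS closes the epoxide into lanosterol, and STARD4 carries cholesterol between membranes.

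The promoter sequences are shown because SREBP2, NF-Y and Sp1 are known to act together at sterol genes. Whether any of these factors acts on the members in these cells was not tested. RefSeq windows on GRCh38.p14, from 250 bases before the start site to 50 bases after it, were found for 4 of the 5 members, and SQLE had none. They are chr5:111512486-111512785 on the minus strand for STARD4, chr7:155297628-155297927 on the plus strand for INSIG1, chr10:1049070-1049369 on the minus strand for IDI1 and chr21:46228725-46229024 on the minus strand for LSS. The window of SREBF2, chr22:41832855-41833154 on the plus strand, is given as well. It held the only exact match to TCACNCCAC, the letters used for the sterol regulatory element, among the windows of the genes searched here. Where a gene had several windows, that nearest to its GENCODE 29 start was used. Sequences run 5′ to 3′ along the gene, and capitals mark every match to any of the 4 motifs described after them.
STARD4: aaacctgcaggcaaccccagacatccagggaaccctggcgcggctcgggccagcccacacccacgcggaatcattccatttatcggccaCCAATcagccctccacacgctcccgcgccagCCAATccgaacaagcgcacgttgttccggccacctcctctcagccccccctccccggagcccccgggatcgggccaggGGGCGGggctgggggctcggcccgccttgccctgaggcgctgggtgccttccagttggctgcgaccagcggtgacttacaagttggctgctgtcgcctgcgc
INSIG1: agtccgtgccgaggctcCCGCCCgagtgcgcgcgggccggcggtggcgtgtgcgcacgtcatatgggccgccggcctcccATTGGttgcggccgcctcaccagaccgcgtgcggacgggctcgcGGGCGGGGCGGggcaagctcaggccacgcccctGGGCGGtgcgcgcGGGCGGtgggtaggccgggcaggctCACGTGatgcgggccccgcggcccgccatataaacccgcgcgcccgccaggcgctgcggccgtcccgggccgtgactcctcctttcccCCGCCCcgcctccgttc
IDI1: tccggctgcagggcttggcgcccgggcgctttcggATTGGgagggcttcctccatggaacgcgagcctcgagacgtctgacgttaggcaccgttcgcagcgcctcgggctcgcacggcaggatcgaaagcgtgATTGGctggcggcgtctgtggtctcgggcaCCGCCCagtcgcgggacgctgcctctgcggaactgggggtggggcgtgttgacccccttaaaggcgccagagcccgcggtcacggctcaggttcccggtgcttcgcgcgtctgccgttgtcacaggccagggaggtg
LSS: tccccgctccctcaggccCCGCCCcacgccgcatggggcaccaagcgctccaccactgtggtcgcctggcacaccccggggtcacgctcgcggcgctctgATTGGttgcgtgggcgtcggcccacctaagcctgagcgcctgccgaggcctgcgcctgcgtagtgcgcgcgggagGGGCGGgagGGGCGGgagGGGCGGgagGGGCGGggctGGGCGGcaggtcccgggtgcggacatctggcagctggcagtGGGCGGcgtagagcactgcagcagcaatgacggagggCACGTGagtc
SREBF2: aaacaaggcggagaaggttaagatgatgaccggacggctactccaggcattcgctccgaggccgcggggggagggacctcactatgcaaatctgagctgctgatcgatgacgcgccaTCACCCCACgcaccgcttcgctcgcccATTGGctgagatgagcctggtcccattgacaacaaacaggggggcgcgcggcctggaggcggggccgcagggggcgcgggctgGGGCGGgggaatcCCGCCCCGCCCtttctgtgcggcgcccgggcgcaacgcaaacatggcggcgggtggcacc

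The motifs were the sterol regulatory element TCACNCCAC, the E-box CACGTG, the NF-Y box CCAAT and the Sp1 box GGGCGG, each searched on both strands. Only exact letters counted, with N as any base, so variant elements were not searched for. No match to one motif overlapped a match to another. An NF-Y box stood in all 4 member windows, against 34.6% of 35116 RefSeq promoter windows of the same length. STARD4 had 2 NF-Y boxes, IDI1 had 2, and INSIG1 and LSS had 1 each. An Sp1 box also stood in all 4 member windows, against 45.0% of all windows, with 6 in INSIG1, 7 in LSS and 1 each in STARD4 and IDI1. The letters of the Sp1 box are all G or C. G and C made up 69% of the STARD4 and IDI1 windows, 74.7% of LSS and 78.3% of INSIG1. The shares over all windows were not matched for base content. They count every window of a gene, while each member is counted by 1 window. IDI1 had 3 windows, and that starting at 1056655 held 0 NF-Y boxes. INSIG1 and LSS each held 1 E-box, which 7.26% of all windows held. TCACNCCAC, present in 1.13% of all windows, was in 0 of the 4 member windows and stood at -133 to -125 in SREBF2, counted in bases with the start base as 0. These matches describe the letters of short windows and say nothing of binding in these cells.

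**Figure D1:**
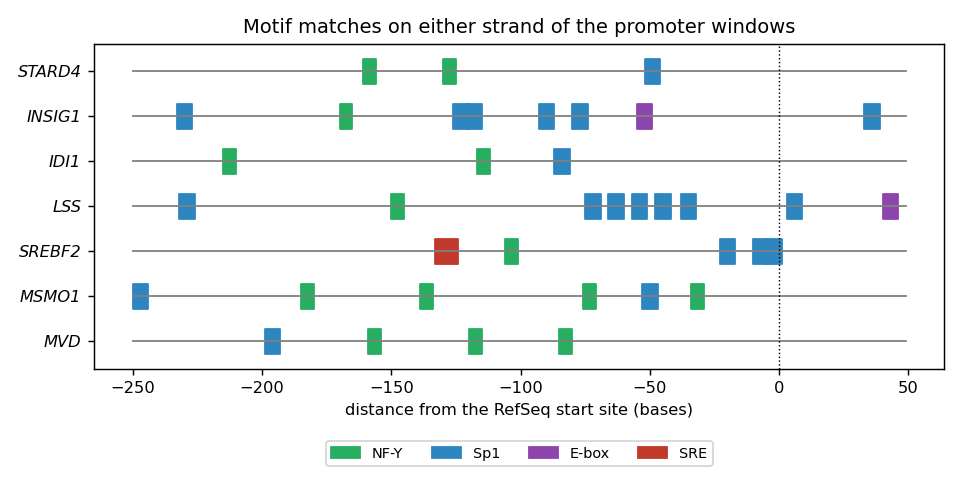
Positions of the 4 motifs in the RefSeq promoter windows of 4 members and of SREBF2, MSMO1 and MVD, in bases from the start site on the x axis. Each gene is a row, coloured boxes are matches on either strand, and every row carries at least 1 NF-Y and 1 Sp1 box.

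All values below are FPKM as deposited, that is, fragments per kilobase of transcript scaled to the mapped fragments of a library, so levels can be set side by side between genes. The deposited table is a selection: its smallest absolute authors' log2 ratio is 1.00 and its largest authors' p-value is 0.0497, both set on these same libraries. A test on genes chosen in this way cannot count as separate evidence that they differ. Limma was run on log2(FPKM + 1) over the 1207 listed genes that reached 1 FPKM in 3 or more of the 6 libraries, with Benjamini-Hochberg adjustment and a threshold of 0.05. INSIG1, IDI1, LSS and SQLE were above 1 FPKM in all 6 libraries. STARD4 passed the filter only through its 3 PC9-GR libraries and so had to differ. The table holds no counts, so the depth of each library is unknown, and in bulk RNA fewer cells expressing a gene and less RNA per cell cannot be told apart.

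All 5 members were called higher in PC9-GR. Among all tested genes 48.4% were called higher and 51.3% lower, so nearly every tested gene was called and only the direction distinguishes them. With each library set to an equal total over the listed genes, limma called 586 genes higher and 433 lower and left 188 uncalled, against 4 uncalled without that scaling. The 3 PC9-GR libraries lay above the 3 PC9 libraries for each member, as they did for 48.3% of all listed genes. The enzymes IDI1, SQLE and LSS were a little over 2-fold higher in mean FPKM, INSIG1 was 4.78-fold higher, and STARD4 was near zero in PC9 and clearly present in PC9-GR.

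**Figure D2:**
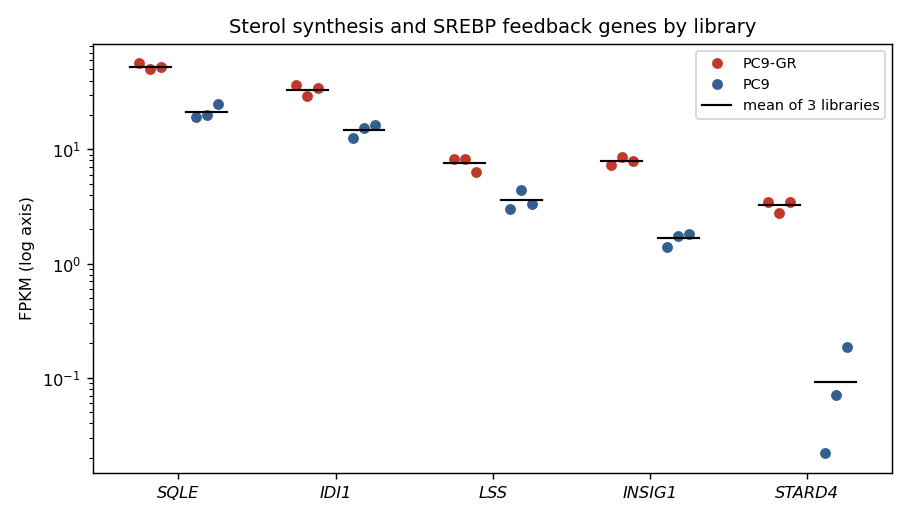
FPKM of the 5 members in each library on a log axis, with PC9-GR left of PC9 for each gene, points for libraries and a bar for the mean of 3. The groups do not overlap for any member, and the widest gap is that of STARD4, at 2.78 to 3.45 FPKM in PC9-GR and 0.0218 to 0.185 FPKM in PC9.

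IDI1, which supplies the dimethylallyl unit that starts isoprenoid chains, measured 36.2, 29.5 and 34.5 FPKM in the PC9-GR libraries and 12.6, 15.3 and 16.3 FPKM in the PC9 libraries. The lowest PC9-GR library, replicate 2, was 1.81 times the highest PC9 library. Mean FPKM was 33.4 ± 3.49 in PC9-GR and 14.8 ± 1.89 in PC9 (SD, n = 3 each), a 2.26-fold difference. On the log2(FPKM + 1) scale IDI1 rose by 1.13 ± 0.126 (SE), with a 95% interval of 0.84 to 1.41 and a limma adjusted p of 1.58e-05.

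SQLE, the squalene epoxidase and a rate-limiting step of the later pathway, was the most abundant member in both lines. It measured 56.4, 50.3 and 52.3 FPKM in PC9-GR and 19.2, 19.9 and 24.8 FPKM in PC9. The PC9-GR libraries lay close together, with a coefficient of variation of 5.89%, against 14.4% in PC9, where replicate 3 was the high one. The fold of means was 2.48, and the log2(FPKM + 1) difference was 1.28 ± 0.117 (SE; 95% interval 1.02 to 1.54, limma adjusted p = 4.79e-06).

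LSS, lanosterol synthase, measured 8.23, 8.30 and 6.38 FPKM in PC9-GR and 2.98, 4.41 and 3.35 FPKM in PC9. It had the narrowest gap of the 5, with its lowest PC9-GR library 1.45 times its highest PC9 library. PC9-GR replicate 3 was low and PC9 replicate 2 was high within their groups. Means were 7.64 ± 1.09 FPKM in PC9-GR and 3.58 ± 0.738 FPKM in PC9 (SD, n = 3 each), 2.13-fold apart. The log2(FPKM + 1) difference was 0.92 ± 0.160 (SE), with a 95% interval of 0.56 to 1.28 and a limma adjusted p of 0.000312.

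INSIG1, the sterol-sensing brake on SREBP2 release, measured 7.36, 8.51 and 7.94 FPKM in PC9-GR and 1.40, 1.75 and 1.83 FPKM in PC9. Every PC9-GR library was at least 4.02 times the highest PC9 library. Means were 7.94 ± 0.576 FPKM in PC9-GR and 1.66 ± 0.228 FPKM in PC9 (SD, n = 3 each). Its log2(FPKM + 1) difference was 1.75 ± 0.134 (SE; 95% interval 1.45 to 2.05, limma adjusted p = 1.62e-06).

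STARD4, the sterol carrier, measured 3.44, 2.78 and 3.45 FPKM in PC9-GR and 0.0218, 0.0709 and 0.185 FPKM in PC9. All 3 PC9 values were low but above the table's floor of 0.001 FPKM, and they differed among themselves more than those of any other member, with a coefficient of variation of 90.4%. The fold of means was 34.8, and its size rests on single PC9 libraries: it was 25.2 without PC9 replicate 1 and 69.6 without PC9 replicate 3. For the other 4 members the fold moved less, and the widest range in proportion was 1.97 to 2.41, for LSS. The log2(FPKM + 1) difference of STARD4 was 1.95 ± 0.118 (SE; limma adjusted p = 4.97e-07), and with a pseudocount of 0.1 it was 4.19. The authors' deposited table gives STARD4 a log2 ratio of 5.02 and INSIG1 one of 2.23, while IDI1, LSS and SQLE have 1.18, 1.13 and 1.31 in the authors' deposited table.

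Scaling changed the sizes but not the directions. With each library set to an equal total over the listed genes, the median gene moved up by 0.61 on the log2 scale. The listed genes sum to 16705 to 17114 FPKM in PC9-GR libraries and 28346 to 30541 FPKM in PC9 libraries. Under that scaling the log2 difference was 1.89 for IDI1, 2.06 for SQLE, 1.59 for LSS, 2.37 for INSIG1 and 2.34 for STARD4. Quantile normalization gave SQLE 1.97, IDI1 1.67, LSS 1.00, INSIG1 1.72 and STARD4 1.86, so that SQLE had the largest log2 difference of the 5. Median-ratio scaling, which moved the median gene by -0.23, gave SQLE 0.98, IDI1 0.84 and LSS 0.66. Limma called all 5 members higher under each of these scalings. Each scaling was computed over the listed genes alone, which were selected for a difference, so none rests on unchanged genes. That the calls held is therefore not separate support for the direction.

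**Figure D3:**
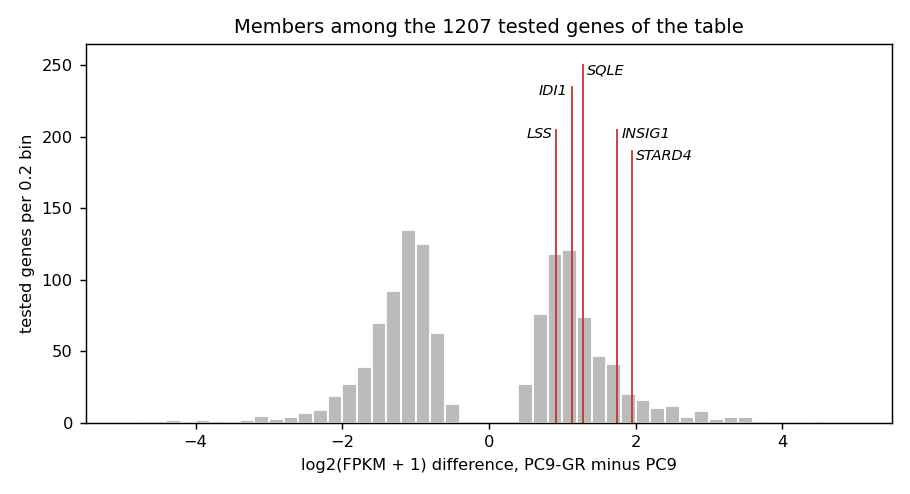
Histogram of the log2(FPKM + 1) difference, PC9-GR minus PC9, of the 1207 tested genes in bins 0.2 wide, with the 5 members as lines. The gap around 0 comes from the selection of the table; LSS, IDI1 and SQLE lie in the dense part of the higher genes, INSIG1 and STARD4 to its right.

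Set among the 584 genes called higher, the enzymes were ordinary in size and the regulator and the carrier were larger. The log2 difference of LSS exceeded that of 28.6% of them, that of IDI1 52.1% and that of SQLE 63.5%. INSIG1 exceeded 84.1% and STARD4 88.2%. These ranks are a description on the log2(FPKM + 1) scale, which understates the change of low genes such as STARD4, and SQLE passed INSIG1 and STARD4 under quantile normalization.

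The order of levels differed between the lines at a single place. In PC9-GR the order of mean FPKM was SQLE, IDI1, INSIG1, LSS, STARD4, and in PC9 it was SQLE, IDI1, LSS, INSIG1, STARD4. In PC9-GR the ranges of INSIG1 (7.36 to 8.51 FPKM) and LSS (6.38 to 8.30 FPKM) overlapped, so these neighbours did not differ beyond their spread. In PC9 the lowest LSS value (2.98 FPKM) lay above the highest INSIG1 value (1.83 FPKM). All other neighbours in either order had ranges that did not overlap.

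Ratios of FPKM between members within a library do not change when all genes of that library are multiplied by a common factor. Quantile normalization can change them, and the ratios were not computed after it. Ratios among the 3 enzymes overlapped between the lines, while those with INSIG1 or STARD4 did not. SQLE over IDI1 was 1.59 ± 0.0986 in PC9-GR and 1.45 ± 0.129 in PC9, IDI1 over LSS was 4.45 ± 0.927 in PC9-GR and 4.19 ± 0.692 in PC9, and SQLE over LSS was 7.04 ± 1.09 in PC9-GR and 6.12 ± 1.47 in PC9 (SD, n = 3 each). INSIG1 over IDI1 was 0.203, 0.289 and 0.230 in PC9-GR and 0.111, 0.114 and 0.112 in PC9, a 2.14-fold difference. INSIG1 over SQLE was 0.151 ± 0.0194 in PC9-GR and 0.0781 ± 0.00843 in PC9, and INSIG1 over LSS was 1.05 ± 0.177 in PC9-GR and 0.471 ± 0.0742 in PC9 (SD, n = 3 each). STARD4 over IDI1 was 0.0950, 0.0944 and 0.1002 in PC9-GR, close to one another, and 0.00172, 0.00463 and 0.0113 in PC9.

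Of the 10 pairs of members, 7 had ratios that did not overlap between the lines, namely every pair that held INSIG1 or STARD4. The share of such pairs among all listed genes was not computed, so the count does not set these members apart. STARD4 also passed the filter only through its PC9-GR libraries. A two-sided exact permutation test on the log2 ratio gave p = 0.1 for these 7 pairs (adjusted p = 0.143 over the 10 pairs), and 0.1 is the smallest value that 3 against 3 libraries allow. The exact permutation p was 0.3 for SQLE over IDI1, 0.5 for SQLE over LSS and 0.7 for IDI1 over LSS. No pair could therefore pass 0.05, and a missed threshold does not show that the enzymes changed alike.

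**Figure D4:**
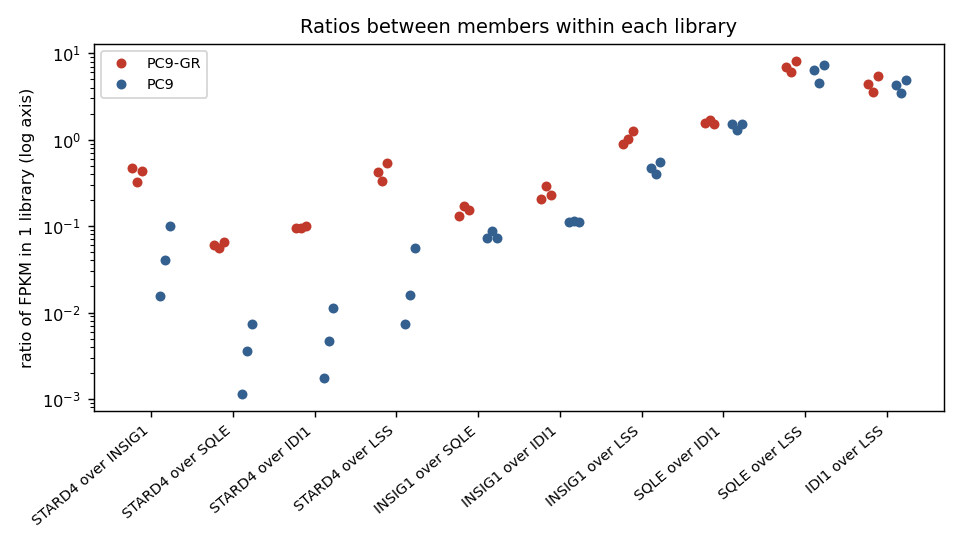
Ratio of FPKM between each pair of members in each library, on a log axis, with PC9-GR left of PC9. Ratios with STARD4 or INSIG1 are higher in all 3 PC9-GR libraries, and the 3 ratios among SQLE, IDI1 and LSS overlap.

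SREBF2, which encodes SREBP2 itself, was also listed and was higher in PC9-GR. It measured 50.9, 59.0 and 40.4 FPKM in PC9-GR and 22.9, 29.2 and 21.3 FPKM in PC9, with replicate 2 the highest library of each line. Its fold of means was 2.05 and its log2(FPKM + 1) difference was 1.00 ± 0.159 (SE; limma adjusted p = 0.000167). The log2 difference of SREBF2 was 1.78 with equal library totals and 1.71 with quantile normalization. Relative to SREBF2 in the same library the enzymes overlapped between lines, with LSS over SREBF2 at 0.153 ± 0.0112 in PC9-GR and 0.146 ± 0.0141 in PC9 (SD, n = 3 each; exact permutation p = 0.5, adjusted over 5 ratios 0.625). INSIG1 over SREBF2 was 0.162 ± 0.0301 in PC9-GR and 0.0691 ± 0.0146 in PC9 (SD, n = 3 each). STARD4 over SREBF2 was 0.0667 ± 0.0192 in PC9-GR and 0.00402 ± 0.00410 in PC9 (SD, n = 3 each). For both ratios the libraries of the lines did not overlap (exact permutation p = 0.1, the smallest possible, adjusted p = 0.25). STARD4 passed the filter only through its PC9-GR libraries. How often ratios to SREBF2 overlap over all listed genes was not computed, so these ratios do not set the members apart.

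Of 22 sterol synthesis enzymes, 5 are among the listed genes, and all 5 were called higher, as were 48.4% of all tested genes. Besides IDI1, SQLE and LSS these are MVD, which makes isopentenyl diphosphate just before IDI1, and MSMO1, which removes methyl groups after lanosterol. MVD measured 21.0, 19.8 and 17.2 FPKM in PC9-GR and 9.11, 8.40 and 7.96 FPKM in PC9. MSMO1 measured 48.6, 45.9 and 42.5 FPKM in PC9-GR and 21.2, 20.3 and 20.3 FPKM in PC9. Their folds of means, 2.28 and 2.22, were close to those of the member enzymes, and the median log2 difference of the 5 enzymes was 1.11, against a median of 1.10 over all genes called higher and -0.63 over all genes tested. The other 17 enzymes of the list are not among the listed genes. Every listed gene has an absolute authors' log2 ratio of at least 1.00, so the values of those 17 are unknown here. Of 18 genes of SREBP processing and feedback, INSIG1 and SREBF2 are listed.

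Genes of sterol uptake and transport moved in both directions. Of 20, 4 are listed, 2 called higher and 2 called lower. Besides STARD4, LRP1, an endocytic lipoprotein receptor, rose 2.26-fold to 18.4 ± 3.49 FPKM in PC9-GR, against 8.17 ± 0.382 FPKM in PC9 (SD, n = 3 each; limma adjusted p = 3.91e-05). NPC2, which hands cholesterol out of the lysosome lumen, fell to 99.4, 127.5 and 126.9 FPKM in PC9-GR, against 428.6, 464.9 and 417.8 FPKM in PC9. Its log2 difference was -1.89 ± 0.122 (SE; limma adjusted p = 6.95e-07), and with equal library totals it was -1.09. Of the 93 listed genes on the chromosome of NPC2, 20.4% have a higher ratio in the authors' deposited table, against 871 of all 1705 listed genes. The part of position in the value of NPC2 was not tested. OSBP2, an oxysterol-binding protein, fell to 5.32 ± 0.224 FPKM in PC9-GR, against 26.5 ± 3.21 FPKM in PC9 (SD, n = 3 each; limma adjusted p = 3.35e-07), and its log2 difference of -2.12 was -1.39 with equal library totals.

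Of 18 genes of sterol efflux, esterification and the LXR response, 2 are listed and both were called higher. APOE, a lipoprotein component that accepts exported cholesterol, measured 49.6, 68.8 and 46.1 FPKM in PC9-GR and 15.7, 9.27 and 9.91 FPKM in PC9, a 4.71-fold difference (limma adjusted p = 5.91e-06). CYP27A1, a sterol hydroxylase, measured 1.46 ± 0.175 FPKM in PC9-GR and 0.286 ± 0.104 FPKM in PC9 (SD, n = 3 each). It passed the filter only through PC9-GR, and its log2 difference of 0.94 was 2.04 with a pseudocount of 0.1. None of 13 genes of the isoprenoid branch was listed. Over the 4 sterol lists together, 13 of 78 genes are listed, 11 called higher and 2 lower, against 48.4% called higher and 51.3% called lower among all tested genes. The 11 include the 5 members, which were chosen with earlier results of these data known, so the count is not a separate result. Of the 11, STARD4 and CYP27A1 passed the filter only through PC9-GR.

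Of 28 genes of fatty acid synthesis and desaturation, 4 are listed, 3 called higher and 1 lower. SCD, the stearoyl desaturase, measured 17.04, 28.4 and 21.5 FPKM in PC9-GR and 0.859, 1.55 and 0.897 FPKM in PC9, and PC9-GR replicate 2 was its highest library. That replicate was also the highest PC9-GR library for SREBF2, INSIG1 and, by a narrow margin, LSS, and the lowest for IDI1, SQLE and STARD4. ELOVL2, an elongase of polyunsaturated fatty acids, rose 2.08-fold (limma adjusted p = 0.000245). FADS2, a desaturase, and ACSL5, an acyl-CoA synthetase, had log2 differences of 1.01 and -1.42, and limma called FADS2 higher and ACSL5 lower. With equal library totals the log2 difference of ACSL5 was -0.68 and that of FADS2 was 1.76.

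**Figure D5:**
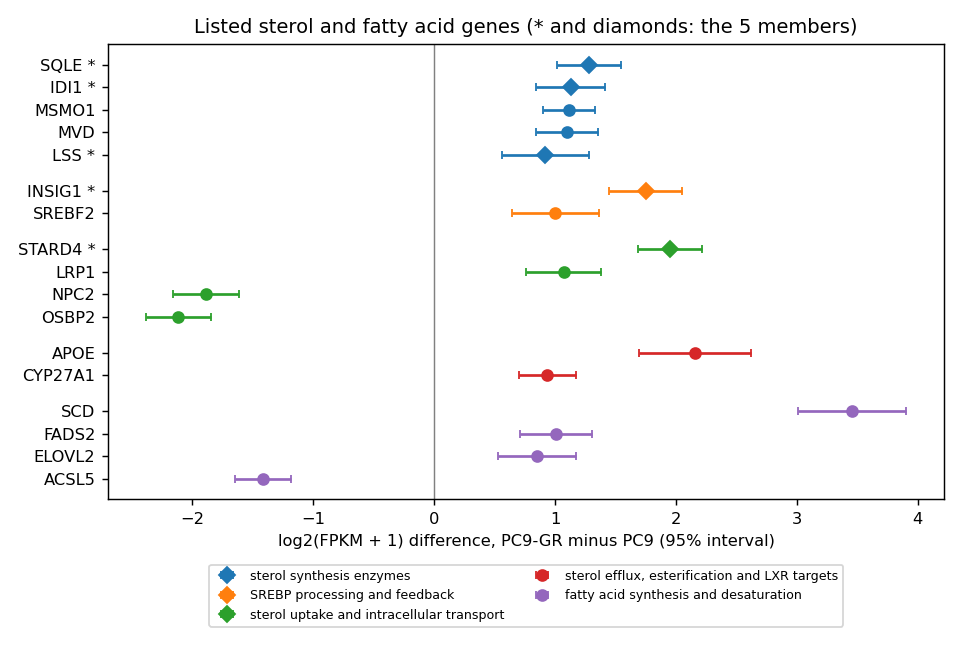
Log2(FPKM + 1) difference, PC9-GR minus PC9, with 95% intervals from limma, for the listed genes of the sterol and fatty acid lists, coloured by list. The 5 members are diamonds with an asterisk; NPC2, OSBP2 and ACSL5 are the genes left of 0.

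The genes whose pattern over the 6 libraries was nearest to each member were searched among the other 1206 tested genes by Euclidean distance on log2(FPKM + 1), each gene centred on its own mean. Nearest to STARD4 were COL4A1 (distance 0.179) and ZEB1 (0.234), nearest to INSIG1 were HHIPL2 (0.0821) and ITGAX (0.144), and nearest to IDI1 were HSPB8 (0.154) and GPX3 (0.209). LSS was nearest to GPC1 (0.171) and FADS2 (0.173), and SQLE to LAMA2 (0.164) and BAMBI (0.182). No member was among the 2 nearest of another member. The distances rest mainly on the difference between the lines, which nearly all tested genes share. COL4A1 and ITGAX, like STARD4, passed the filter only through their PC9-GR libraries and so had to differ.

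Identity and counting limit some of these values. The deposited loci, whose build is not given in the sources used here, place STARD4 on chromosome 5 at 110831730 to 111353006, INSIG1 on chromosome 7 at 155089485 to 155101945, IDI1 on chromosome 10 at 1034337 to 1095110, LSS on chromosome 21 at 47604992 to 47648738 and SQLE on chromosome 8 at 126010738 to 126034525. The STARD4 locus is 521277 bp long, while GENCODE 29 gives the gene 16558 bp, and the IDI1 locus is 60774 bp long, while GENCODE 29 gives 10019 bp. In GENCODE 29, STARD4 shares exonic bases with the antisense gene STARD4-AS1, IDI1 with IDI2-AS1, and LSS with 2 antisense genes, while INSIG1 and SQLE share none. The library kit kept strand, but the strand setting of the counting is not given in the sources used here, so antisense reads within STARD4, IDI1 and LSS are uncertain.

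The listed marker genes of other cell types differed between the lines, as every listed gene does by the selection of the table. Of 27 fibroblast, endothelial and haematopoietic markers, 7 are listed. The 5 listed of 11 haematopoietic markers summed to 46.2 to 57.0 FPKM in PC9-GR libraries and 20.5 to 24.6 FPKM in PC9 libraries, most of it from the lysosomal protein gene CD68, which measured 38.4 ± 3.61 FPKM in PC9-GR and 18.6 ± 1.05 FPKM in PC9 (SD, n = 3 each). The others did not all follow CD68. LYZ, below the filter, averaged 0.142 ± 0.125 FPKM in PC9-GR and 1.09 ± 0.459 FPKM in PC9. ITGAM averaged 7.25 ± 2.12 FPKM in PC9-GR and 0.570 ± 0.583 FPKM in PC9, ITGAX 2.83 ± 0.187 FPKM in PC9-GR and 0.119 ± 0.0281 FPKM in PC9, and CORO1A 4.22 ± 1.13 FPKM in PC9-GR and 2.17 ± 0.421 FPKM in PC9. The fibroblast marker PDGFRB, 1 of 9, ranged over 2.38 to 3.77 FPKM in PC9-GR and 0.0661 to 0.143 FPKM in PC9. The endothelial marker ROBO4, 1 of 7, ranged over 0.880 to 1.42 FPKM in PC9-GR and 0.001 to 0.0395 FPKM in PC9. PDGFRB and ITGAX passed the filter only through PC9-GR and so had to differ, and ROBO4 was below the filter. The defining markers PTPRC, COL1A1 and PECAM1 and all 12 epithelial markers are not among the listed genes, so the epithelial label was not checked on those 12, and the part of other cells in the sterol gene values was not tested. Of 10 lung adenocarcinoma lineage markers, FOXA1 and LPCAT1 are listed and both were called lower.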

How the data were processed

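RNA-seq values came from 3 PC9-GR and 3 PC9 libraries, made per the labels from Trizol-extracted total RNA with a strand-specific Agilent kit. The submitters' processing notes name TopHat and Cufflinks. Versions, build and annotation were not given in the sources used here. Deposited FPKM per library were normalized by the authors for transcript length and mapped fragments, per the file headers. The log2 ratio, p-value and q-value for PC9-GR over PC9 are the authors', per the file headers, and by these values every listed gene has an absolute log2 ratio of at least 1 and a p-value under 0.05.

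Genes that reached 1 FPKM in 3 or more of 6 libraries (1207 of 1705) were fitted with limma 3.58.1 in R 4.3.3 on log2(FPKM + 1), with a variance trend and group as the only term. P-values were two-sided and Benjamini-Hochberg adjusted over all 1207 genes. The step was tested on simulated data. Folds are ratios of mean FPKM; ratios within a library used a two-sided exact permutation test (scipy 1.17.1). Promoter sequences are RefSeq's; gene models are from GENCODE 29. Depth per library is unknown.

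The members and gene lists were chosen with earlier results of these data known. Besides the members, the genes named are those of the sterol, SREBP and fatty acid lists that the table holds, the 2 listed neighbours on either side of each member, and the 2 nearest patterns per member; marker genes, and genes named as not listed, come from the marker and pathway lists. Alternatives were the pseudocount, the filter, 3 scalings, no variance trend, the replicate number as a block and leaving out each library.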

Additional observations from a re-analysis of the deposited data

How the results depend on the processing

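All 5 members kept their direction and stayed past the threshold under each alternative that could be run. A filter at 5 FPKM tested 629 genes and left STARD4 and CYP27A1 without a value. It lowered the counts over the table to 234 higher and 393 lower, against 584 and 619. Of the calls, 37.3% were then higher, against 48.5% with the filter at 1 FPKM. The background share of higher calls thus depends on the filter. The lowest and highest log2 differences over the alternatives were 1.80 and 4.19 for STARD4, 1.51 and 2.37 for INSIG1, 0.84 and 1.89 for IDI1, 0.66 and 1.59 for LSS, and 0.98 and 2.06 for SQLE. The largest limma adjusted p of any member was 0.00373, for LSS with median-ratio scaling. The highest values came from equal library totals, or for STARD4 from the pseudocount of 0.1. The 12 other sterol and fatty acid genes also kept direction and call wherever tested.

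With the replicate number as a block, limma called 586 genes higher and 619 lower, and no member's call changed. Same-numbered libraries deviated from their group means with correlations of -0.0977, 0.0822 and 0.164 over the tested genes, and not every library correlated best with its own number, so the numbers were not taken as pairs. The selection of the table on the same libraries limits every test, and FPKM without counts leaves the counting error of low values such as STARD4 in PC9 unknown.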

Other observations

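Listed genes next to the members on their chromosomes did not all move with them. Nearest to SQLE was MTSS1, 270008 bp away and lower, at 0.865 ± 0.159 FPKM in PC9-GR and 3.47 ± 0.590 FPKM in PC9 (SD, n = 3 each; limma adjusted p = 1.83e-05). The other 3 listed neighbours of SQLE were RP11-383J24.1, RN7SL590P and RP11-65D17.1, each with a mean under 1 FPKM in both lines. Nearest to LSS were FTCD, 29511 bp away, at 0.395 ± 0.141 FPKM in PC9-GR and 0.0949 ± 0.0425 FPKM in PC9, and the collagen VI gene COL6A2, 52229 bp away, at 81.8 ± 9.38 FPKM in PC9-GR and 32.3 ± 2.80 FPKM in PC9 (limma adjusted p = 3.48e-06). No listed gene followed LSS on its chromosome, and none preceded IDI1.

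The listed neighbours of IDI1, ACBD7 and NMT2, lie 13961960 and 14042273 bp away and were both called higher; ACBD7 passed the filter only through its PC9-GR libraries and so had to differ. In the authors' deposited table the ratio is higher for 871 of all 1705 listed genes. By chromosome, the ratio is higher for 80.4% of the 51 listed genes on that of IDI1 and 94.1% of the 17 on that of LSS. It is higher for 63.1% of 65 on that of SQLE, 51.2% of 84 on that of STARD4 and 52.3% of 86 on that of INSIG1. The listed genes nearest to STARD4 are CTC-254B4.1, LINC00491, TRIM36 and PRR16, the nearest of them 3107452 bp away, and TRIM36 and PRR16 were called higher, both having passed the filter only through PC9-GR. INSIG1 has SMARCD3 and ATG9B before it and RNF32 after it, and SMARCD3 and RNF32 were called higher. The part of chromosomal position in the values of the members was not tested.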
